A study of Mus musculus with 6 samples.

Results

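The genes described here belong to 7 solute carrier families that move amino acids and related small molecules across membranes, Slc1, Slc3, Slc6, Slc7, Slc36, Slc38 and Slc43. They were taken by gene symbol from the table of counts, without the cystine exchanger gene Slc7a11, and came to 60 of the 18238 genes in it. The name of 1 of them, Slc7a6os, comes from its place on the strand opposite Slc7a6. It is not a carrier, and Slc43a3 is known as a carrier of purine nucleobases, so the rule is slightly wider than its title.

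The libraries came from 6 mice carrying lung cancer, the background shared by both groups. In 3 of them the animals had received artemisinin, a sesquiterpene lactone used against malaria, and the other 3 were labelled as the cancer model. The sources used here name neither the strain, age and sex of the mice nor the organ sampled, the way the cancer arose, or the dose and duration of the drug. Each library was taken as 1 mouse, since the design text speaks of mice. The p-values below set the difference between the groups against the spread between these libraries.

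Amino acids do not cross lipid membranes unaided, and cells divide the work among carriers of different mechanism. Some couple uptake to sodium or protons and concentrate their substrate, others exchange one amino acid for another, and the Slc7 light chains reach the surface only when joined to an Slc3 heavy chain. In lung, such carriers clear amino acids and peptides from the alveolar lining fluid, feed surfactant synthesis and glutathione production, and in capillary endothelium remove serotonin and noradrenaline from blood. Transcription of several of them is known to be raised by ATF4, the factor of the amino acid starvation response, through a C/EBP-ATF response element.

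That element was searched for in the promoter windows of the members, which run from 250 bases before to 50 after each start site (RefSeq, GRCm38.p6). Windows were present for 44 of the 60 genes. The motif TGATGNAAN, on both strands, was found in 4 of their 65 windows (6.15%), against 3.95% of all 32851 windows in the table. Those windows belonged to Slc1a4, to Slc7a7 and to Slc6a21, which had at most 4 counts in a library. In Slc7a7, 2 overlapping windows shared a match, and its other windows held none. The windows of Slc1a4, a neutral amino acid exchanger, and of Slc7a7, a light chain that exports cationic amino acids, are shown because both genes were expressed in all 6 mice and hold the letters of that motif. Both lie on the minus strand and are written 5′ to 3′ as the gene reads, with the motif in capitals.
Slc1a4, chr11:20332664-20332963, minus strand: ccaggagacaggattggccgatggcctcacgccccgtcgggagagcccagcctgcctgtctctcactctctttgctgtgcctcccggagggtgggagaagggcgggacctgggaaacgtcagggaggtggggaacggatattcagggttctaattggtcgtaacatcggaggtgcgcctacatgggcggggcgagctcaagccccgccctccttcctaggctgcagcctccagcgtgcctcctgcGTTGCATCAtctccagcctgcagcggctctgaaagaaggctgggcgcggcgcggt
Slc7a7, chr14:54417895-54418194, minus strand: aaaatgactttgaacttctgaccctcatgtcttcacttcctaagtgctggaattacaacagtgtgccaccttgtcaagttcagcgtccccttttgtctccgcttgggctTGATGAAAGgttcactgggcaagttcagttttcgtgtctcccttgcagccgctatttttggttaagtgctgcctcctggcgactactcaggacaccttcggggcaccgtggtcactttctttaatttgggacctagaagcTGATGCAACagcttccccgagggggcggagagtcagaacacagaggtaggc
In Slc1a4 the match lay across the start site on the opposite strand, and in Slc7a7 both matches read in the direction of the gene. A match of 9 letters is a description of these windows and says nothing about binding.

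The libraries held between 25566173 and 34745497 counts. The artemisinin libraries varied more among themselves than the model libraries did, with a biological coefficient of variation of 0.389 against 0.211 over all genes. Lung epithelial transcripts were abundant, and the summed level of 10 alveolar type 2 cell markers was 11280.3 to 29431 normalised CPM in the artemisinin mice, against 64442 to 93473 in the model mice, with 6 of the 10 lower at an adjusted p under 0.05. By the same test 6 of 7 neutrophil markers and all 5 smooth muscle markers were higher. Markers of skeletal muscle and keratinocytes summed to 4439.9 and 248 normalised CPM in artemisinin replicate 2 and to at most 55.8 and 10.2 in any other library, so values that rest on that library are given with and without it. In such bulk samples, fewer cells of a type and less RNA per cell cannot be told apart.

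By edgeR, a single one of these genes was called different between artemisinin and model mice. Slc36a2, a proton-coupled carrier of glycine, alanine and proline, was 3.96-fold higher in the artemisinin mice. Of the 60 members 43 had enough counts to be tested. The quasi-likelihood test of edgeR called 1 of these higher and 0 lower (adjusted p under 0.05), where 3 were lower at an unadjusted p under 0.05. DESeq2 gave an adjusted p for 49 members, Slc38a3 among them, and called 8 (16.3%) higher and 2 (4.08%) lower, against 7.7% and 6.37% of the 16243 genes it tested. In edgeR 2.17% of all 15242 tested genes were called higher, 2.3% lower and 4.47% either way, so the share of members it called was about that of all genes or below it. The 3 values of each group did not overlap in 20 of the 43, with 14 higher and 6 lower, where over all tested genes this held for 16.3% and 17.3%, or 33.6% together. At an unadjusted p under 0.05, 12 members were higher and 3 lower, against 13.7% and 11.0% of all tested genes, or 24.7% together. A log2 fold change above 0 was found for 25 members, and for 53.2% of all tested genes. The median log2 fold change of the 43 was 0.13, beside 0.04 over all tested genes. By family, the log2 fold change was above 0 for 2 of 5 tested Slc1 genes, both Slc3 genes, 7 of 11 Slc6, 6 of 10 Slc7, 1 of 3 Slc36, 5 of 9 Slc38 and 2 of 3 Slc43 genes.

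**Figure D1:**
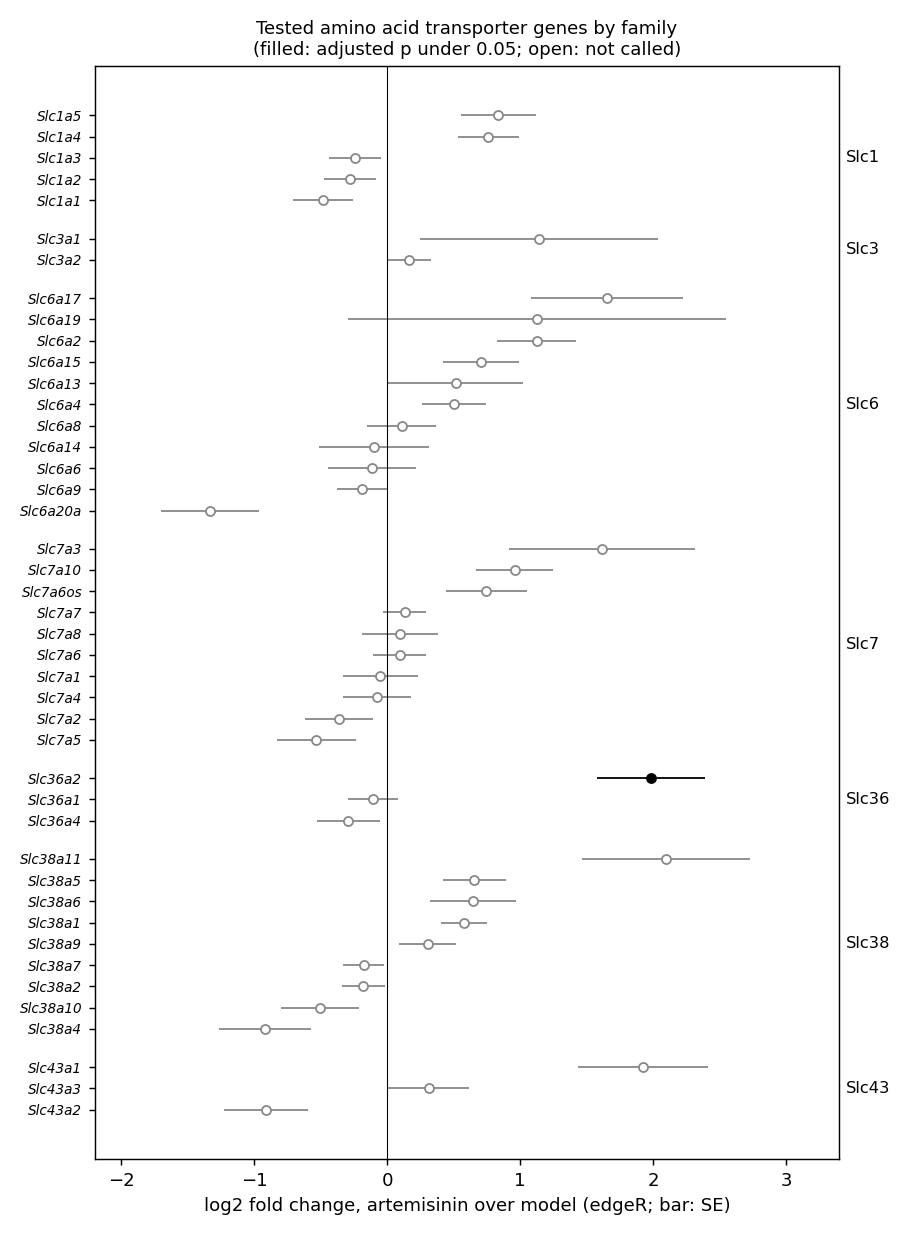
Log2 fold change of artemisinin over model for the 43 tested members, grouped by family, with bars of 1 SE from edgeR. Slc36a2 is the single filled point, at 1.98, and the other 42 are open because none had an adjusted p under 0.05.

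Levels between genes are compared here in FPKM, which divide the counts by gene length. By the mean over all 6 libraries 13 members stood at 10 FPKM or more, 22 between 1 and 10, and 25 under 1. Slc43a3 led both groups, at 67.5 ± 23.7 FPKM in the artemisinin mice and 51.0 ± 12.3 FPKM in the model mice (SD, n = 3 each). Slc1a5 stood second in the artemisinin group at 55.3 ± 24.8 FPKM and sixth in the model group at 28.6 ± 2.23 FPKM. Slc38a2 averaged 44.5 ± 5.20 FPKM in the artemisinin mice and 46.9 ± 5.51 in the model mice. Slc6a6 and Slc6a14 followed it in both groups, and the neighbours in that order, from Slc43a3 to Slc6a14, lay within their spread. Slc36a2 ranked 12th of the 60 with artemisinin at 11.1 ± 4.002 FPKM (SD) and 30th in the model at 2.62 ± 1.25 FPKM. Slc7a10 ranked 10th with artemisinin and 16th in the model, and Slc43a2 ranked 17th and 10th.

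**Figure D2:**
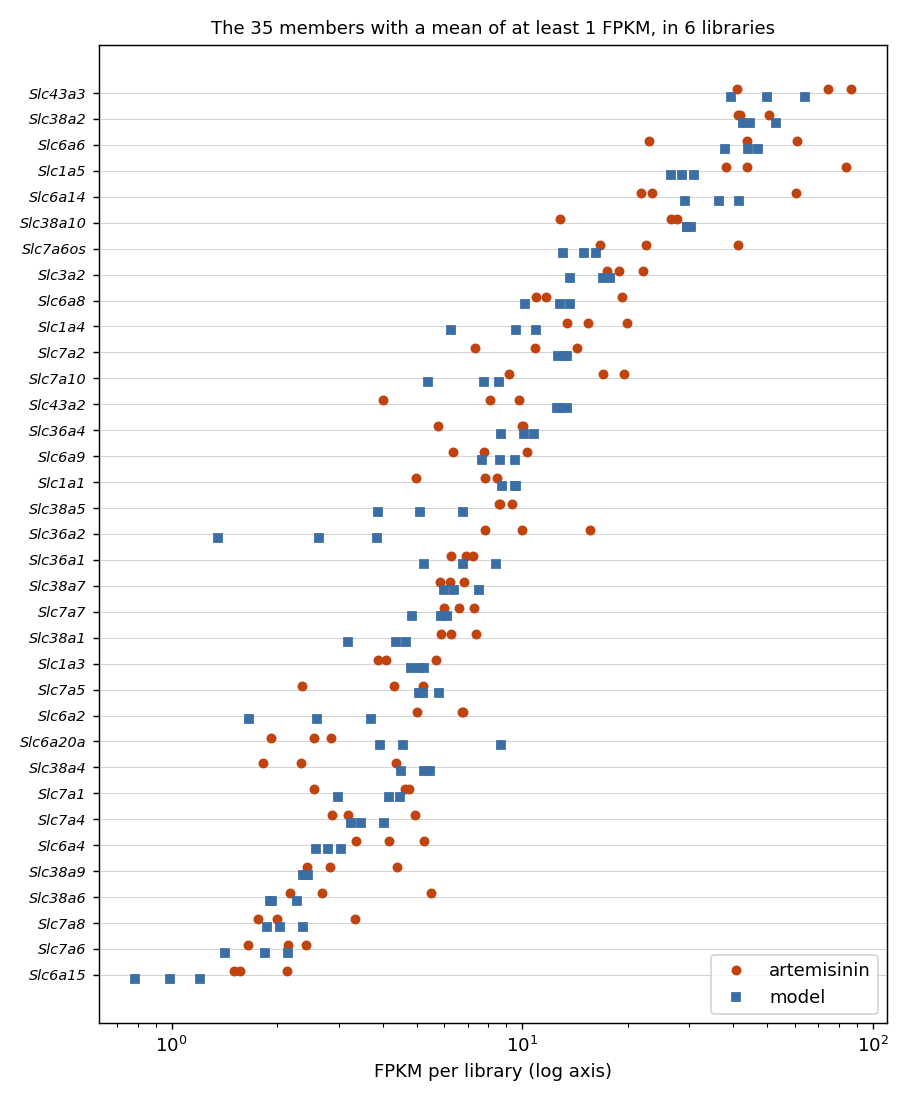
FPKM in each of the 6 libraries, on a log axis, for the 35 members with a mean of at least 1 FPKM, with artemisinin as circles and the model as squares. The circles of Slc36a2 lie between 7.84 and 15.6 FPKM, above its squares at 1.36 to 3.86, while for Slc43a3 and Slc3a2 the symbols mix.

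The Slc36 family carries small neutral amino acids together with protons. Slc36a2 (PAT2; chromosome 11, 55158468 to 55185099, GRCm38.p6) had 36.4, 19.6 and 23.4 normalised CPM in the artemisinin mice, against 6.86, 9.70 and 3.50 in the model mice. All 3 artemisinin values were above the highest model value, and artemisinin replicate 1 was the highest. Its mean was 26.5 ± 8.80 normalised CPM in the artemisinin mice and 6.69 ± 3.10 in the model mice (SD, n = 3 each), with a log2 fold change of 1.98 (SE 0.41, adjusted p = 0.0419 by edgeR). That call was kept with DESeq2 and with every other scaling and filter tried, and without artemisinin replicate 2. It was lost without any other 1 library, where the edgeR adjusted p lay between 0.0706 and 0.190. Over the 6 fits that each left out 1 library the log2 fold change lay between 1.67 and 2.33.

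The gene next to it on the same chromosome, 19222 bases away, is Slc36a1, the carrier that exports amino acids from lysosomes. Slc36a1 had 35.95, 33.5 and 34.5 normalised CPM in the artemisinin mice, against 46.8, 36.5 and 28.8 in the model mice, and the groups overlapped. Its log2 fold change of −0.11 (SE 0.19, adjusted p = 0.742 by edgeR) was close to 0 and turned to 0.0024 when libraries were scaled by their totals. On the other side, 6745 bases away, Slc36a3, a carrier known from testis, had at most 6 counts in any library. Slc36a4, a high-affinity carrier of proline and tryptophan found elsewhere in the genome, had 31.3, 58.1 and 54.8 normalised CPM in the artemisinin mice, against 52.8, 59.2 and 64.6 in the model mice, with artemisinin replicate 1 lowest and the other 5 libraries close together (log2 −0.29 ± 0.24, SE; edgeR adjusted p = 0.471).

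In mouse, Slc36a2 is known as a surface protein of brown and beige fat cells and Slc7a10, the exchanger of small neutral amino acids including D-serine, as one of white fat cells. Slc7a10 had 41.3, 20.8 and 36.2 normalised CPM in the artemisinin mice, against 12.8, 17.8 and 20.0 in the model mice. Every artemisinin value was above the model values, but artemisinin replicate 2, at 20.8, was only just above model replicate 3. The log2 fold change of 0.96 (SE 0.29, adjusted p = 0.107 by edgeR) missed the threshold. Without artemisinin replicate 2 it was 1.20 with an edgeR adjusted p of 0.0278, and DESeq2 called it too. By RefSeq the Slc7a10 gene overlaps Lrp3, and whether the counting used the strand was not given.

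Markers of fat cells are given beside these genes. The 4 markers summed to 369, 70.8 and 61.5 normalised CPM in the artemisinin mice, against 30.9, 48.9 and 42.7 in the model mice. All 4 had a log2 fold change above 0, and none was called. Adipoq, the adiponectin gene, had 27.3, 0.693 and 6.24 normalised CPM in the artemisinin mice, against 0.334, 1.91 and 0.882 in the model mice, and the groups overlapped through artemisinin replicate 2. Fabp4, a fatty acid binding protein gene also found in capillary endothelium, had 303, 56.2 and 37.2 normalised CPM in the artemisinin mice, against 22.2, 24.7 and 20.9 in the model mice, with no overlap (log2 2.55 ± 0.76, SE; edgeR adjusted p = 0.106). Plin1 and Cidec, which encode lipid droplet proteins, overlapped between the groups. None of the 4 was at 0 in any library. A further 4 genes known from brown and beige fat were added after values had been seen. Ucp1, the uncoupling protein, had 493, 3 and 0 counts in the artemisinin mice, against 0, 20 and 1 in the model mice, and it was not tested. Cidea, a lipid droplet protein gene, had 14.3, 5.04 and 3.84 normalised CPM in the artemisinin mice, against 0.911, 2.62 and 1.86 in the model mice, with no overlap and no call (log2 2.10 ± 0.63, SE; edgeR adjusted p = 0.104). P2rx5, a purine receptor gene, had 8.87, 6.99 and 4.24 normalised CPM in the artemisinin mice, against 11.1, 9.33 and 12.3 in the model mice, with every artemisinin value below the model values and no call (log2 −0.70 ± 0.31, SE; edgeR adjusted p = 0.213). Ppargc1a, a coactivator of mitochondrial genes, overlapped between the groups (log2 0.25 ± 0.27, SE; edgeR adjusted p = 0.582). The part of fat cells in the levels of Slc36a2 and Slc7a10 was not tested.

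**Figure D3:**
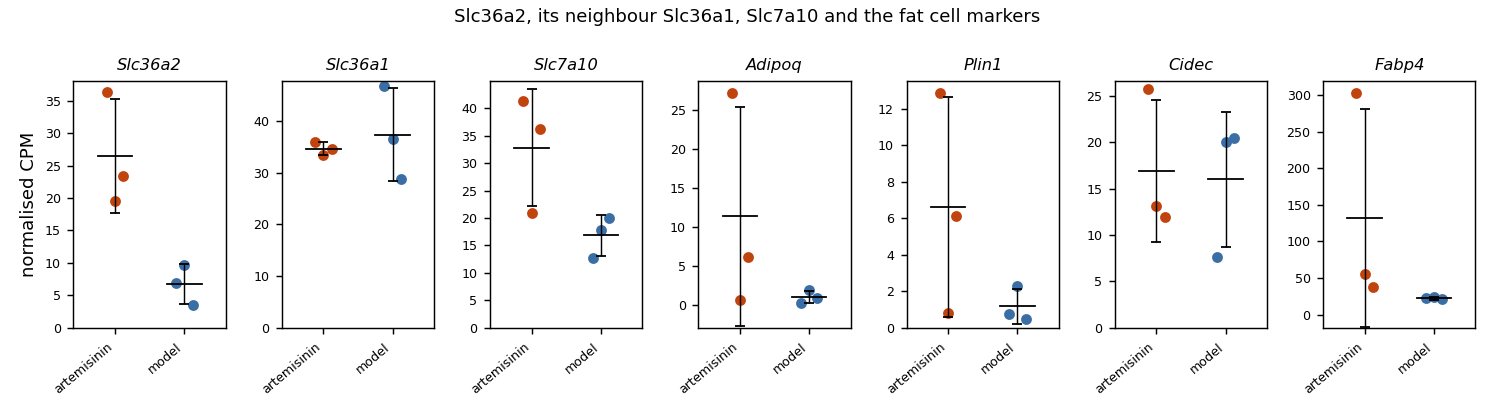
Normalised CPM per library (points), mean (line) and SD (bar) in artemisinin and model mice for Slc36a2, its neighbour Slc36a1, Slc7a10 and 4 fat cell markers, each on its own axis. Slc36a2, Slc7a10 and Fabp4 have all 3 artemisinin mice above the model mice, and artemisinin replicate 1 is the highest mouse for these genes and for Adipoq, Plin1 and Cidec.

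Among the Slc1 carriers, the 2 neutral amino acid exchangers had every artemisinin value above the model values and the 3 tested glutamate carriers did not, and edgeR called none of the 5. Slc1a5 (ASCT2), which exchanges glutamine and other neutral amino acids, had 219, 107 and 115 normalised CPM in the artemisinin mice, against 90.4, 80.4 and 76.5 in the model mice. The groups did not overlap, but 1 artemisinin mouse stood well above the rest (log2 0.84 ± 0.28, SE; edgeR adjusted p = 0.133). Without that mouse, replicate 1, the log2 fold change was 0.43. Slc1a4 (ASCT1), the carrier of alanine, serine and cysteine whose window is printed above, had 57.2, 53.3 and 74.1 normalised CPM in the artemisinin mice, against 25.9, 43.8 and 39.3 in the model mice. Its groups did not overlap either (log2 0.76 ± 0.23, SE; edgeR adjusted p = 0.107), and model replicate 1 was the lowest of the 6. DESeq2 called both genes, with adjusted p = 0.0439 for Slc1a5 and 0.0342 for Slc1a4.

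The log2 fold changes of all 3 tested glutamate carriers were below 0, and none was called. Slc1a1 (EAAT3), which also takes up cysteine, had 27.7, 32.1 and 17.6 normalised CPM in the artemisinin mice, against 34.5, 36.3 and 37.5 in the model mice. Its artemisinin values were all below the model values, and the difference was not called (log2 −0.48 ± 0.22, SE; edgeR adjusted p = 0.234). Slc1a2 and Slc1a3, known best as the glial glutamate carriers, had log2 fold changes of −0.28 (SE 0.19) and −0.24 (SE 0.19), with groups that overlapped. Both overlapped only through artemisinin replicate 2. Without that library the log2 fold change of Slc1a3 was −0.48. With 1 library left out, that of Slc1a2 lay between −0.40 and −0.21. Neither gene was called in any of these fits. Slc1a6 and Slc1a7 were not tested, with at most 14 counts in a library. The summed FPKM of the family were 112, 66.9 and 73.5 in the artemisinin mice, against 51.9, 55.2 and 52.1 in the model mice. Divided by the TMM factor of each library, the sums were 106, 66.87 and 69.63, against 54.71, 56.17 and 54.35.

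The Slc3 heavy chains and their Slc7 light chains form exchangers of 2 subunits. Slc3a2 (CD98 heavy chain), the partner of most light chains, had 162, 188 and 207 normalised CPM in the artemisinin mice, against 142, 179 and 175 in the model mice, and the groups overlapped (log2 0.17 ± 0.16, SE; edgeR adjusted p = 0.551). Slc3a1, the heavy chain of the renal cystine carrier, had 50, 9 and 8 counts in the artemisinin mice, against 10, 13 and 11 in the model mice. Most of the artemisinin counts of Slc3a1 came from replicate 1, and its log2 fold change of 1.14 was −0.45 without it. Its usual light chain gene Slc7a9 had 1 count in the 6 libraries together.

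Of the light chains that pair with Slc3a2, 5 are members here. Slc7a11, another of them, was left out by the rule and is not counted below. These 5 were measured at different levels, and Slc7a10 made up the largest share of their summed FPKM in 5 of the 6 libraries. Its share was 59.7, 37.5 and 50.5% in the artemisinin mice, against 26.7, 33.0 and 38.1% in the model mice, and the groups overlapped. These shares may hold reads of Lrp3, which overlaps Slc7a10. The share of Slc7a5 was 7.21, 17.6 and 15.5% in the artemisinin mice, against 25.1, 22.0 and 25.7% in the model mice, so that the groups did not overlap. Slc7a5 (LAT1), the exchanger that brings large neutral amino acids such as leucine into dividing cells, had 7.80, 15.3 and 17.4 normalised CPM in the artemisinin mice, against 18.8, 18.6 and 21.2 in the model mice. The 3 artemisinin values were below the model values, and artemisinin replicate 1 was by far the lowest (log2 −0.53 ± 0.30, SE; edgeR adjusted p = 0.302). The ratio of Slc3a2 FPKM to the summed FPKM of the light chains was 0.534, 0.773 and 0.656 in the artemisinin mice, against 0.677, 0.755 and 0.757 in the model mice, with artemisinin replicate 1 lowest.

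**Figure D4:**
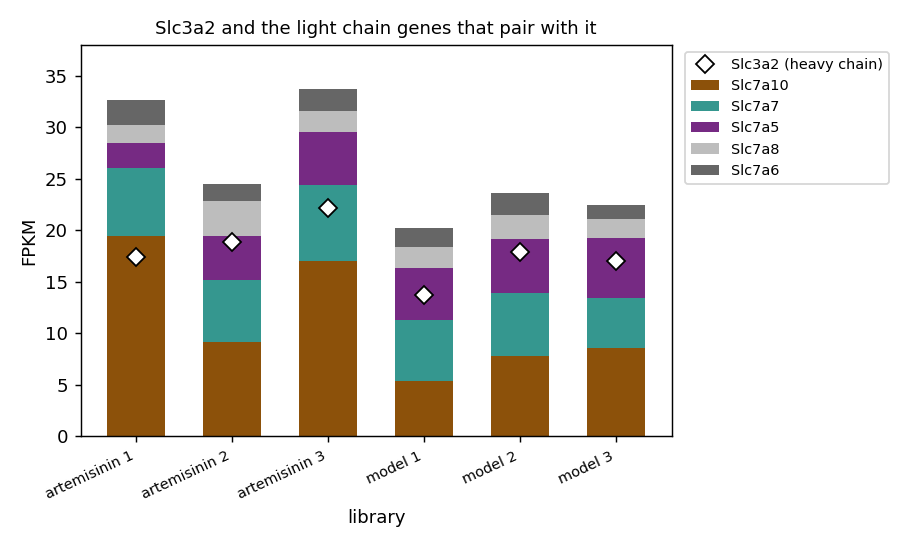
FPKM of 5 light chain genes that pair with Slc3a2, without Slc7a11, stacked, with Slc3a2 itself as diamonds, in each artemisinin and model library. The Slc7a10 segment reaches 59.7% of the stack in artemisinin replicate 1 and is smallest in model replicate 1 at 26.7%. It may hold reads of Lrp3, which overlaps Slc7a10.

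The other light chains were not called, and their groups overlapped. Slc7a7 (y+LAT1), some of whose windows hold the response element motif, had 20.7, 20.0 and 23.0 normalised CPM in the artemisinin mice, against 20.6, 20.7 and 16.8 in the model mice. Its log2 fold change of 0.13 (SE 0.16, adjusted p = 0.629 by edgeR) was small. Slc7a8 (LAT2) had 13.0, 26.3 and 14.7 normalised CPM in the artemisinin mice, against 16.7, 18.7 and 15.1 in the model mice, with artemisinin replicate 2 the highest of the 6 (log2 0.10 ± 0.29, SE; edgeR adjusted p = 0.85), and the log2 fold change was −0.28 without it. Slc7a6 (y+LAT2) had a log2 fold change of 0.09 (SE 0.20), and Slc7a4, a relative of the cationic carriers whose substrate is not settled, one of −0.08 (SE 0.25), which was 0.04 without artemisinin replicate 2. Slc7a6os, which lies 1723 bases from Slc7a6, had 59.4, 25.6 and 32.5 normalised CPM in the artemisinin mice, against 24.1, 25.3 and 20.8 in the model mice. There the groups were barely separate, as artemisinin replicate 2 and model replicate 2 were at 25.6 and 25.3 (log2 0.74 ± 0.30, SE; edgeR adjusted p = 0.189).

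Cationic amino acids, arginine among them, enter through Slc7a1, Slc7a2 and Slc7a3, which need no heavy chain. Slc7a2 (CAT2), the arginine carrier of activated macrophages, had 62.7, 132 and 93.4 normalised CPM in the artemisinin mice, against 128, 122 and 119 in the model mice. Artemisinin replicate 1 was the lowest and replicate 2 the highest of all 6, so the groups overlapped (log2 −0.36 ± 0.25, SE; edgeR adjusted p = 0.408). The remaining artemisinin values lay below every model value. Without artemisinin replicate 2 the log2 fold change was −0.66, and Slc7a2 was still not called. Slc7a1 (CAT1), the general carrier, had 17.8, 34.7 and 33.3 normalised CPM in the artemisinin mice, against 23.2, 33.6 and 32.1 in the model mice, and its log2 fold change of −0.05 ± 0.28 (SE) turned to 0.05 with scaling by library totals. Slc7a3 was low, with 34, 41 and 31 counts in the artemisinin mice, against 15, 3 and 18 in the model mice, and its groups did not overlap (log2 1.61 ± 0.70, SE; edgeR adjusted p = 0.208). By RefSeq it overlaps Snx12, so some of these few counts may belong to that gene.

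Arginine is also handled by enzymes, and Arg2, the mitochondrial arginase gene, fell. It had 13.6, 17.4 and 8.96 normalised CPM in the artemisinin mice, against 95.8, 59.6 and 56.8 in the model mice, a log2 fold change of −2.41 (SE 0.31, adjusted p = 0.0149 by edgeR). The call was lost without artemisinin replicate 1 or model replicate 1 or 3. The alveolar type 2 markers were lower without overlap in 10 of 10, with a median log2 fold change of −2.08, and their part in the level of Arg2 was not tested. Cdo1, the cysteine dioxygenase that begins taurine synthesis, rose and had 312, 188 and 297 normalised CPM in the artemisinin mice, against 73.3, 91.5 and 104 in the model mice, a log2 fold change of 1.56 (SE 0.24, adjusted p = 0.0224 by edgeR). Fat cells and hepatocytes are known to express it, and the part of fat cells, whose marker sums are given above, was not tested. Its call was lost without artemisinin replicate 1 or any 1 model replicate. These were the 2 called of 17 genes in a list of enzymes of arginine, glutamine, taurine and branched-chain amino acids, whose median log2 fold change was 0.10. Of all tested genes 2.17% were called higher and 2.3% lower. Slc6a6, the taurine carrier, had 156, 317 and 413 normalised CPM in the artemisinin mice, against 287, 322 and 351 in the model mice, with artemisinin replicate 1 lowest and replicate 3 highest of the 6 (log2 −0.11 ± 0.33, SE; edgeR adjusted p = 0.848).

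The Slc6 family couples uptake to sodium and chloride, and 11 of its 20 members were tested, with none called by edgeR. Slc6a2, the noradrenaline carrier, had 40.9, 43.3 and 30.3 normalised CPM in the artemisinin mice, against 11.2, 16.8 and 24.6 in the model mice. All 3 artemisinin values were above the model values, with a log2 fold change of 1.12 (SE 0.30, adjusted p = 0.0798 by edgeR), and DESeq2 called it with an adjusted p of 0.00803. Slc6a4, the serotonin carrier, had 8.72, 11.6 and 13.7 normalised CPM in the artemisinin mice, against 8.08, 7.19 and 8.70 in the model mice, where artemisinin replicate 1 was level with model replicate 3 (log2 0.50 ± 0.24, SE; edgeR adjusted p = 0.241). Both are expressed by lung endothelium, whose 7 markers summed to 1328, 1976 and 3251 normalised CPM in the artemisinin mice, against 1617, 2610.1 and 2709 in the model mice. Those groups overlapped, and 1 of the 7 had a log2 fold change above 0. Platelets also carry the serotonin carrier, and their 5 markers summed to 305, 65.6 and 89.5 normalised CPM in the artemisinin mice, against 87.5, 67.8 and 38.5 in the model mice. For 4 of the 5 all artemisinin values were above the model values, and none was called. The part of endothelium and platelets was not tested.

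None of the epithelial carriers of the family was called by edgeR over all 6 mice. Slc6a20a, the imino acid carrier for proline, had 3.44, 4.88 and 5.12 normalised CPM in the artemisinin mice, against 9.14, 7.57 and 17.2 in the model mice. The 3 artemisinin values were the lowest of the 6, with a log2 fold change of −1.33 (SE 0.37, adjusted p = 0.0888 by edgeR), and DESeq2 called it with an adjusted p of 0.00937. Its neighbour and close paralog Slc6a20b, 4368 bases away, had 2, 0 and 2 counts in the artemisinin mice, against 0, 0 and 0 in the model mice, and reads that match both copies make the split uncertain. Slc6a14 (ATB0,+), which takes up neutral and cationic amino acids at the airway surface, had 76.2, 209 and 71.2 normalised CPM in the artemisinin mice, against 106, 128 and 149 in the model mice. Artemisinin replicate 2 was the highest of the 6 libraries and the other artemisinin mice were the lowest. Markers of club and secretory airway cells summed to 72588, 20521 and 28129.8 normalised CPM in the artemisinin mice, against 7969.9, 20230.3 and 13140.0 in the model mice, with 5 of 6 above 0 on the log2 scale and none called. Over all 6 mice its log2 fold change was −0.10 ± 0.42 (SE; edgeR adjusted p = 0.896), and without artemisinin replicate 2 it was −0.79 with an edgeR adjusted p of 0.0485. Slc6a19 (B0AT1), the neutral amino acid carrier of intestine and kidney, had 7, 145 and 2 counts in the artemisinin mice, against 54, 10 and 9 in the model mice. A single artemisinin mouse, replicate 2, held nearly all counts of its group, and the log2 fold change of 1.13 was −2.26 without it.

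Collectrin is a membrane protein that the carriers encoded by Slc6a19 and Slc6a20 are known to use as a partner, and its gene fell with artemisinin. Cltrn, the collectrin gene, had 0, 5 and 1 counts in the artemisinin mice, against 998, 182 and 118 in the model mice. Its model counts came mostly from replicate 1, and its call (edgeR adjusted p = 0.0252) was lost without artemisinin replicate 1 or 3 or any 1 model replicate. Of all tested genes 2.3% were called lower. The alveolar type 2 markers, whose sums are given above, were lower beside Cltrn and beside Slc6a20a, and their part was not tested. Arl6ip5, which restrains Slc1a1, had 136, 154 and 146 normalised CPM in the artemisinin mice, against 113, 113 and 117 in the model mice and was not called (log2 0.35 ± 0.12, SE; edgeR adjusted p = 0.148).

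The remaining tested Slc6 genes carry creatine, glycine and neutral amino acids. Slc6a8, the creatine carrier, had 43.7, 77.3 and 41.2 normalised CPM in the artemisinin mice, against 42.5, 51.5 and 56.5 in the model mice. Its log2 fold change of 0.11 (SE 0.26) was −0.24 without artemisinin replicate 2, and it was not called. Slc6a9, the glycine carrier, had a log2 fold change of −0.19 (SE 0.19) and was not called. Slc6a15 and Slc6a17, carriers of neutral amino acids known mainly from neurons, had groups that did not overlap, with 1.44, 2.80 and 2.32 normalised CPM in the artemisinin mice, against 0.304, 0.865 and 0.914 in the model mice for Slc6a17. Slc6a15 averaged 7.06 ± 1.24 normalised CPM in the artemisinin mice and 4.33 ± 0.833 in the model mice (SD, n = 3 each). Neither was called (edgeR adjusted p = 0.189 and 0.141). Slc6a13, a GABA and taurine carrier, was low, with 26, 19 and 35 counts in the artemisinin mice, against 23, 20 and 15 in the model mice.

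The Slc38 family holds the sodium-coupled neutral amino acid carriers, and 9 of its 10 members were tested, with none called by edgeR. Slc38a2 (SNAT2), the carrier that cells raise when starved of amino acids, was the most abundant. It had 222, 195 and 184 normalised CPM in the artemisinin mice, against 261, 203 and 218 in the model mice, and the groups overlapped (log2 −0.18 ± 0.16, SE; edgeR adjusted p = 0.512). Slc38a1 (SNAT1), 43953 bases away on chromosome 15, had 50.9, 50.8 and 60.3 normalised CPM in the artemisinin mice, against 28.8, 40.7 and 39.1 in the model mice. Its artemisinin values were all higher than the model values (log2 0.58 ± 0.17, SE; edgeR adjusted p = 0.104), and DESeq2 gave an adjusted p of 0.0465. Slc38a5 (SNAT5), which carries glutamine and glycine, had 16.5, 16.4 and 15.2 normalised CPM in the artemisinin mice, against 7.62, 9.73 and 13.2 in the model mice, again with no overlap (log2 0.65 ± 0.24, SE; edgeR adjusted p = 0.154).

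Of the other tested members of the family, Slc38a11 had higher values with artemisinin, and the rest had lower or overlapping ones. Slc38a4, a carrier known from liver and from imprinting in mouse, had 9.68, 19.3 and 7.61 normalised CPM in the artemisinin mice, against 20.9, 23.4 and 25.1 in the model mice. The artemisinin values were all lower, with a log2 fold change of −0.92 (SE 0.34, adjusted p = 0.162 by edgeR), and without artemisinin replicate 2 the log2 fold change was −1.42 with an edgeR adjusted p of 0.0163. Slc38a10, a little studied carrier, had 66.4, 148 and 144 normalised CPM in the artemisinin mice, against 170.3, 169 and 169 in the model mice. The model mice were nearly identical to each other and artemisinin replicate 1 stood far below the rest (log2 −0.51 ± 0.29, SE; edgeR adjusted p = 0.318). Slc38a9, the lysosomal carrier that reports arginine to mTORC1, had 39.5, 23.4 and 25.5 normalised CPM in the artemisinin mice, against 24.7, 23.4 and 23.5 in the model mice, with artemisinin replicate 1 the highest and the other 5 alike (log2 0.30 ± 0.22, SE; edgeR adjusted p = 0.414). Slc38a11 was low, with 13, 41 and 50 counts in the artemisinin mice, against 9, 6 and 9 in the model mice, and its groups did not overlap (log2 2.10 ± 0.63, SE; edgeR adjusted p = 0.107). Slc38a6 and Slc38a7, a lysosomal exporter of glutamine, were not called, at 0.65 (SE 0.32) and −0.18 (SE 0.16) on the log2 scale. Slc38a6 overlapped only through artemisinin replicate 2, and without it the log2 fold change was 0.87, still not called.

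Slc38a3 (SNAT3), the glutamine carrier of liver and kidney, was removed by the expression filter. It had 20, 174 and 8 counts in the artemisinin mice, against 3, 1 and 2 in the model mice, and 174 of its 202 artemisinin counts came from the mouse with the high skeletal muscle and keratinocyte markers. The ratio of rates, artemisinin over model, was 34.7 (exact 95% confidence interval 15.7 to 95.7), and without artemisinin replicate 2 it was 7.30 (2.97 to 21.6), intervals that cover counting error only. Where other settings tested it, DESeq2 gave an adjusted p of 0.000997, and edgeR gave 0.0851 with no filter. Of the fits that left out 1 library, 4 tested it, and edgeR gave an adjusted p of 0.0488 without artemisinin replicate 3 and of 0.196 to 0.267 without a model replicate.

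None of the 3 Slc43 genes was called by edgeR. Slc43a3, the nucleobase carrier and the most abundant member, had 109, 213 and 232 normalised CPM in the artemisinin mice, against 117, 183 and 146 in the model mice, and its groups overlapped (log2 0.31 ± 0.30, SE; edgeR adjusted p = 0.547). Slc43a2 (LAT4), a facilitative carrier of branched-chain amino acids, had 27.2, 71.3 and 55.4 normalised CPM in the artemisinin mice, against 97.6, 92.0 and 100.4 in the model mice. Its artemisinin values were all lower than the model values, which lay close together (log2 −0.91 ± 0.32, SE; edgeR adjusted p = 0.14). Slc43a1 (LAT3), a carrier of the same substrates, was low and on the other side, with 5.80, 2.87 and 2.66 normalised CPM in the artemisinin mice, against 0.759, 1.33 and 0.882 in the model mice and no overlap (log2 1.93 ± 0.49, SE; edgeR adjusted p = 0.0729). DESeq2 called both, with adjusted p = 0.042 for Slc43a2 and 0.0031 for Slc43a1. Artemisinin replicate 1 was the most extreme of the 6 libraries for each.

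**Figure D5:**
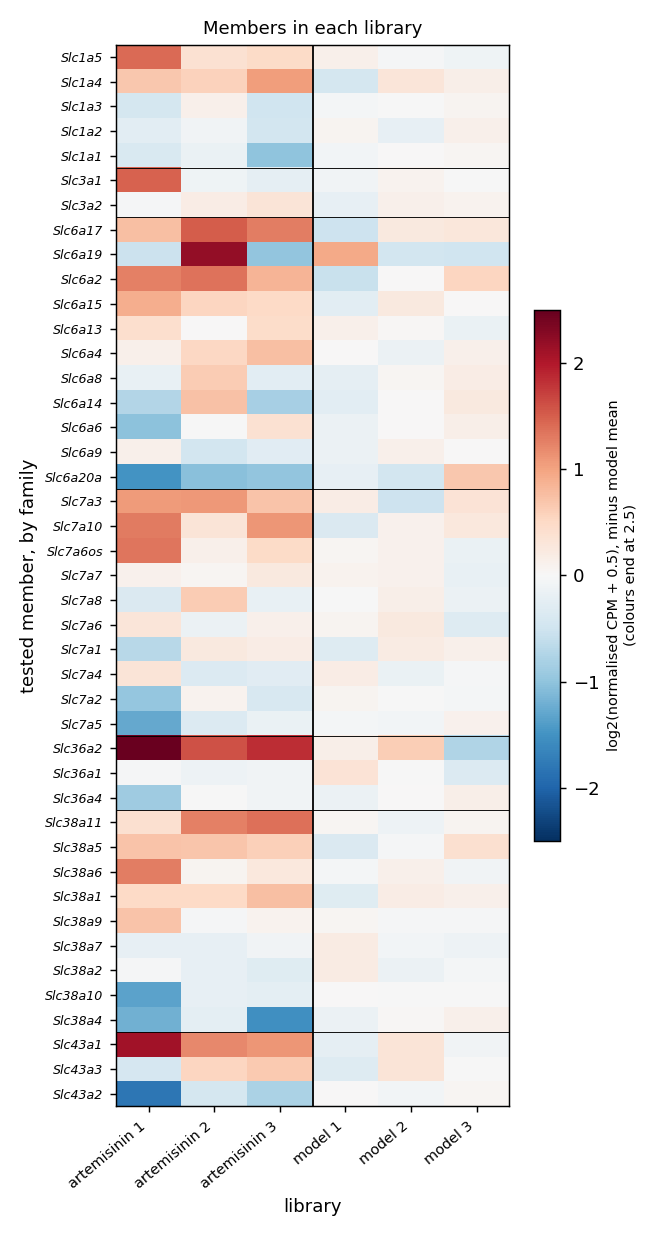
Each tested member in each library, as log2(normalised CPM + 0.5) minus the mean of the model libraries, ordered by family and fold change. The model columns are centred by this subtraction, so stronger colours in the artemisinin columns follow in part from it. Artemisinin replicate 1 holds the highest or lowest of the 6 values in 23 of the 43 genes (53.5%, against 59.4% of all tested genes).

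Most members varied more between artemisinin mice than between model mice. The median SD of log2(normalised CPM + 0.5) over the 43 tested genes was 0.44 in the artemisinin group and 0.18 in the model group, and it was larger with artemisinin in 28 of the 43 (65.1%). Over all tested genes the medians were 0.31 and 0.16, and 76.1% had the larger SD with artemisinin. Artemisinin replicate 1 gave the highest or the lowest of the 6 values in 53.5% of members and in 59.4% of all tested genes. Model replicate 2 did so in 6.98% of members and 17.4% of all tested genes. The summed FPKM of all 60 members were 476, 504 and 511 in the artemisinin mice, against 395, 445 and 436 in the model mice, without overlap. With each library's sum divided by its TMM factor they were 449.7, 504 and 484 in the artemisinin mice, against 417, 453 and 454 in the model mice, and the groups overlapped.

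Of the 17 members that were not tested, none but Slc38a3 had more than 24 counts in any library. They include the GABA carrier Slc6a11, the betaine carrier Slc6a12, the dopamine carrier Slc6a3 and the neuronal glycine and proline carriers Slc6a5 and Slc6a7, beside Slc1a6, Slc1a7, Slc36a3, Slc7a14 and Slc7a15. Slc6a16, Slc6a20b, Slc6a21 and Slc6a5 had 0 counts in all model libraries, and Slc7a9 and Slc7a13 had 0 in all artemisinin libraries. Slc6a12 had 7, 6 and 11 counts in the artemisinin mice, against 0, 3 and 1 in the model mice, with no overlap, and apart from it and Slc38a3 the groups overlapped in all 15 others. In the smallest library 3 counts amount to 0.117 CPM. Of the 60 members 46 had at least 1 count in every library.

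Several members are neighbours in the genome, and 10 pairs lay within 200000 bases of each other. Both genes were tested in the pairs Slc36a2 and Slc36a1, Slc38a1 and Slc38a2, Slc43a1 and Slc43a3, and Slc7a6 and Slc7a6os. The first pair had log2 fold changes of 1.98 and −0.11, and the pair on chromosome 15 0.58 and −0.18. Slc43a1 and Slc43a3, 72958 bases apart, had log2 fold changes of 1.93 and 0.31. Whether neighbours differ from each other was not tested.

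Among genes that answer amino acid shortage the share called by edgeR was near that of all genes, and members moved in both directions. Of 28 genes in a list of the amino acid response and ATF4 targets, 27 were in the table and tested, and edgeR called 1 higher (2.17% of all tested genes) and 0 lower (2.3%). At an unadjusted p under 0.05 there were 10 of the 27, against 24.7% of all tested genes. DESeq2 called 3 higher and 2 lower, against 7.7% and 6.37% of all genes it tested. Cebpb, a transcription factor that binds such elements and is also known from inflammation and myeloid cells, rose and had 332, 190.3 and 245 normalised CPM in the artemisinin mice, against 140.4, 119.9 and 107 in the model mice, a log2 fold change of 1.06 (SE 0.23, adjusted p = 0.0496 by edgeR). That call was lost without any 1 library other than artemisinin replicate 2, and the neutrophil markers, higher in 6 of 7, summed to 695, 1032 and 4635 normalised CPM in the artemisinin mice, against 79.9, 96.6 and 111 in the model mice. The part of neutrophils was not tested. The next genes were singled out with their values known. Asns, the asparagine synthetase gene and the classical target of the response, had 18.6, 26.1 and 20.4 normalised CPM in the artemisinin mice, against 21.9, 22.7 and 22.8 in the model mice, and its log2 fold change of −0.05 (SE 0.17, adjusted p = 0.871 by edgeR) was near 0. Atf4 itself had 309, 189 and 184 normalised CPM in the artemisinin mice, against 178, 160.4 and 162 in the model mice, with no overlap and no call (log2 0.44 ± 0.23, SE; edgeR adjusted p = 0.266). After Cebpb, the smallest p-values belonged to Atf5 and Cth, neither called and both without overlap. Atf5 had 146, 109 and 94.4 normalised CPM in the artemisinin mice, against 67.1, 68.2 and 71.7 in the model mice (log2 0.76 ± 0.18, SE, edgeR adjusted p = 0.0611). Cth had 6.06, 9.83 and 4.15, against 21.4, 13.6 and 17.7 (log2 −1.40 ± 0.35, SE, edgeR adjusted p = 0.0698). Of the 27 genes 14 had a log2 fold change above 0 and 13 below. The median of the list was 0.09.

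The list of lysosomal amino acid sensing and mTORC1 had 27 genes, of which 26 were tested. It had 0 called by edgeR, against 4.47% of all tested genes, and 5 at an unadjusted p under 0.05, against 24.7%. DESeq2 called 0 higher and 2 lower, against 7.7% and 6.37% of all genes it tested. The smallest p-values belonged to Sesn2 and Sesn3, which encode sestrins that restrain mTORC1, and to Tsc2, a subunit of the complex that switches it off. Their log2 fold changes were −0.96 (SE 0.27), −1.25 (SE 0.42) and −0.36 (SE 0.12), and for each the artemisinin values were all below the model values. Sesn1, the remaining sestrin gene, was chosen with its values known and went the other way. It had 54.0, 53.3 and 47.3 normalised CPM in the artemisinin mice, against 35.3, 41.9 and 41.4 in the model mice. Its groups did not overlap, and it was not called (log2 0.38, SE 0.13, edgeR adjusted p = 0.145). The median of the list was −0.18.

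Among 20 amino acid and peptide carriers of other families, 16 were tested and edgeR called 1, lower, against 2.3% of all tested genes called lower. Their median log2 fold change was −0.08. That was Slc15a2 (PEPT2), the peptide carrier of alveolar type 2 cells, which fell and had 36.6, 41.3 and 32.1 normalised CPM in the artemisinin mice, against 191, 122 and 124 in the model mice. Its log2 fold change of −1.99 (SE 0.22, adjusted p = 0.0112 by edgeR) stood beside the lower alveolar type 2 markers given above, whose part was not tested. The call was lost without model replicate 3, where edgeR gave an adjusted p of 0.0514. Slc15a1 (PEPT1), its relative of the intestine and also chosen with its values known, had 0.480, 5.67 and 1.43 normalised CPM in the artemisinin mice, against 13.3, 11.9 and 8.79 in the model mice. Its groups did not overlap, and it was not called (log2 −2.16 ± 0.77, SE; edgeR adjusted p = 0.151).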

How the data were processed

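RNA-seq libraries of 3 artemisinin-treated and 3 model mice with lung cancer were compared. Per the labels' protocols, total RNA (mirVana) went into stranded TruSeq mRNA libraries, and per the submitters' processing notes the build was GRCm38 (mm10). The aligner, counter, strand setting and annotation are not given in the sources used here, and overlapping genes may therefore share reads. Besides Slc7a10 and Slc7a3, such overlaps include Slc38a6 with Trmt5, Slc7a7 with Oxa1l and Slc3a1 with Prepl. The authors deposited whole-number read counts per gene, without normalization. They also deposited FPKM, which equalled those counts divided by library total and a length per gene to within a relative gap of 3.1e-07. FPKM served to compare levels between genes, and for the sums, shares and ratios taken over several genes. They hold no TMM factor.

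All 15242 genes kept by filterByExpr were fitted with edgeR 4.0.16 in R 4.3.3 (TMM, robust quasi-likelihood test, Benjamini-Hochberg over all genes, threshold 0.05). For normalised CPM, counts were divided by the product of library total and TMM factor. DESeq2 1.42.0, 2 other scalings, no filter, a replicate block and leaving out each library were alternatives. With 3 against 3, an exact permutation test of a single value cannot go below 0.1, so significance rests on the spread shared across genes. Members given with values in every library were those called, the 2 most abundant by FPKM in each family, the 10 with the smallest p, and a set of carriers named whatever their result. From each list the genes called were given, or else the 3 with the smallest p. Other members with printed values, among them Slc38a3, Slc38a4, Slc6a15, Slc6a17, Slc6a13 and Slc7a3, fall outside that rule and were chosen after their values were seen. The members, lists and markers were chosen with earlier results of these data known. Promoter windows and coordinates are RefSeq's for GRCm38.p6. Some items of the gene families and lists are not reported here.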

Additional observations from a re-analysis of the deposited data

How the results depend on the processing

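Members called higher and lower numbered 1 and 0 in the edgeR fit, 8 and 2 with DESeq2, 0 and 0 with a replicate block, and 1 and 0 with RLE size factors, with library totals and with no filter. Leaving out 1 library gave 0 to 2 higher and 0 to 2 lower. DESeq2 called Slc1a4, Slc1a5, Slc36a2, Slc38a1, Slc38a3, Slc43a1, Slc6a2 and Slc7a10 higher and Slc43a2 and Slc6a20a lower. Over all genes 331 were called higher and 351 lower by edgeR, 1251 and 1035 by DESeq2, 65 and 63 with the replicate block, and 6 to 670 higher and 11 to 713 lower with 1 library left out, fewest without model replicate 1 and most without artemisinin replicate 2. Same-numbered mice did not deviate together over all genes (correlations −0.00395, −0.103 and 0.0303). This check could miss a pairing that affects few genes, so the block is given as an alternative only. The adjusted p of Slc36a2 under the block was 0.0722, and the calls of Cdo1, Cebpb and Cltrn were lost too.

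The median log2 fold change of the tested members, 0.13, was 0.16 with DESeq2, 0.24 with library totals, 0.30 with no filter, 0.10 with the replicate block and 0.12 to 0.20 with 1 library left out. Scaling by library totals moved the median of all genes to 0.15, against 0.04, and with it Slc36a1 to 0.0024 and Slc7a1 to 0.049. With the replicate block Slc6a19 was −0.47. With 1 library left out, the log2 fold change ran from −0.27 to 0.084 for Slc36a1, from −0.45 to 1.56 for Slc3a1, from −0.79 to 0.14 for Slc6a14, from −2.26 to 2.44 for Slc6a19, from −0.48 to 0.19 for Slc6a6, from −0.22 to 0.20 for Slc7a1 and from −0.28 to 0.28 for Slc7a8. The causes were not tested. Of 395 values of 36 followed genes, 341 kept direction and side of the threshold, 30 lost a call, 10 gained one and 14 turned round. With no filter 1 followed gene, not Slc36a2, lost its call. The depth limits what can be said of members under 0.117 CPM.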
